A study of Homo sapiens with 4 samples.

Results

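The nuclear-encoded subunits of the respiratory chain were taken from the gene symbols of the tables by their name stems: NDUFA, NDUFB, NDUFC, NDUFS, NDUFV and NDUFAB for complex I, SDHA to SDHD for complex II, UQCR and CYC1 for complex III, CYCS for cytochrome c, the nuclear COX subunits for complex IV and ATP5 for complex V. The stems matched 167 symbols. Removing 69 pseudogenes and 6 antisense or divergent transcripts left 92 genes of the 44715 symbols listed: 38 of complex I, 4 of complex II, 10 of complex III, CYCS, 19 of complex IV and 20 of complex V. NDUFA4 was counted with complex IV, where its protein is found, although its symbol carries the complex I stem. The libraries came from RNA immunoprecipitation followed by sequencing (RIP-seq) in the HEK293T line, which was derived from kidney cells of a human embryo and expresses SV40 large T antigen. There were 2 libraries pulled down with an antibody against PHGDH, anti-PHGDH 1 and 2, and 2 control pulldowns with an IgG antibody, IgG 1 and 2, all from native lysates of the same line, with no drug or genetic change named in the labels. The series describes its 2 replicates as biological, and no input RNA library was analysed here. The comparison asks which RNAs were recovered with PHGDH, the enzyme that opens the serine synthesis pathway, beyond what the control antibody recovered.

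The respiratory chain passes electrons from NADH (complex I) or succinate (complex II) through ubiquinone, complex III and cytochrome c to oxygen at complex IV, and complex V uses the resulting proton gradient to make ATP. Complexes I, III, IV and V are built from proteins of both genomes: a few hydrophobic subunits are translated inside the mitochondrion, and the rest are translated from nuclear mRNAs in the cytosol and imported. Complex II is encoded wholly in the nucleus. Within a complex, core subunits carry the flavin, iron-sulphur clusters, haem groups or catalytic sites, and a larger number of mostly small accessory subunits surround them.

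The deposited values are CPM, each gene's reads scaled to a common library total and not corrected for gene length, so levels are compared between libraries; a rank of genes by CPM is a rank of reads and not of molecules. The libraries held from 1216477 reads (anti-PHGDH 2) to 3875746 reads (IgG 1). Although it was the deepest, IgG 1 listed only 4148 genes above 0, against 14518 to 16767 in the other libraries, and 61.9% of the 9524 genes tested were at 0 in it. The main counts and the fold changes that rest on IgG 1 are therefore given without it as well. PHGDH mRNA stood at 6550 and 1531 CPM in anti-PHGDH 1 and 2 and at 0 and 461 CPM in IgG 1 and 2. Of the epithelial and progenitor markers taken as present in HEK293T cells, KRT18 and VIM were above 0 in every library (74.3 to 530.0 CPM), KRT8 was at 0 in IgG 1, and NES stayed at or below 5.70 CPM. Of the markers of other cells, PTPRC, CD3E and HBB were at 0 in all 4 libraries, ALB reached 0.297 CPM and COL1A1 12.3 CPM.

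No nuclear-encoded subunit mRNA was called as higher or lower with anti-PHGDH. Of the 92 genes, 77 reached 5 CPM in at least 2 libraries and were tested, and 0 had a limma adjusted p under 0.05 in either direction, the smallest being 0.677. Over all 9524 genes tested the same rule called 0.0105% higher and 0.0% lower. At an unadjusted limma p under 0.05, 7 subunit genes were higher (NDUFS8, UQCRC1, NDUFS7, NDUFB11, COX8A, NDUFB10 and NDUFB7) and 0 were lower, beside 2.74% and 0.0% of all genes. Without IgG 1, which leaves IgG 2 as a lone control, only fold changes are given. On the log2 scale they were -0.48 for NDUFS8, 0.03 for UQCRC1 and -0.26 for NDUFS7. The median of all subunits tested was -1.10 there, whereas that of all genes was 0.14. The count tests edgeR and DESeq2 on recovered reads called 0 subunit genes and found 0 at an unadjusted p under 0.05, beside 0.22% of all genes higher and 1.7% lower at that p in edgeR and 0.934% and 1.56% in DESeq2. The absence of limma calls depends on IgG 2. Without it, IgG 1 is left as a lone control and the spread is taken from the anti-PHGDH libraries, so calls there are not read as a result. The median log2 fold change was then 0.49 for the subunits, well below the 3.60 of all genes.

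The share of reads that went to the subunit mRNAs was lowest in an anti-PHGDH library and highest in an IgG library, and the groups overlapped. Together, the 92 genes took 2.15% of reads in anti-PHGDH 1 (95% Wilson interval 2.14 to 2.17%), 5.84% in anti-PHGDH 2 (5.79 to 5.88%), 3.38% in IgG 1 (3.36 to 3.40%) and 8.45% in IgG 2 (8.41 to 8.49%). IgG 1 lay below anti-PHGDH 2. The anti-PHGDH share was the lower one at each number, but the numbers are not taken to pair the libraries. The intervals cover counting error only and are much narrower than the distance between libraries of 1 group. Mitochondrially encoded genes took 28.8% and 8.69% of reads in anti-PHGDH 1 and 2 and 3.87% and 3.37% in IgG 1 and 2, which lowers the share left for all other genes. With those genes taken out of the totals, the subunit share was 3.03% and 6.39% in anti-PHGDH 1 and 2 and 3.51% and 8.74% in IgG 1 and 2, in the same order. With 2 libraries a group, the smallest two-sided p that an exact permutation test can give is 0.333, so the shares were not tested.

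**Figure D1:**
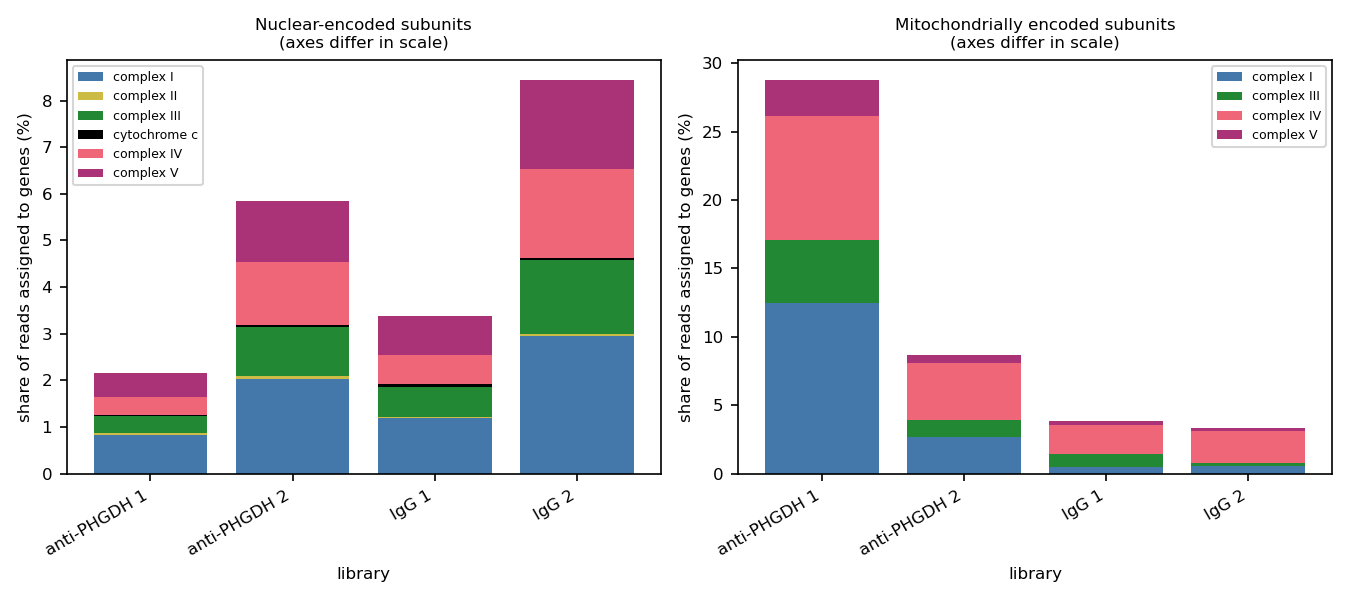
Share of each library's reads (percent, bars from 0) taken by the nuclear-encoded subunits and by the mitochondrially encoded subunits of the same complexes, stacked by complex, in the 4 libraries, on axes of different scale. The nuclear share is 2.15 and 5.84% in the anti-PHGDH libraries and 3.38 and 8.45% in the IgG libraries, and the mitochondrially encoded share is highest in anti-PHGDH 1 at 28.8%.

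The median log2 fold change of the 77 genes tested, anti-PHGDH over IgG on the log2(CPM + 1) scale, was -0.29, with single genes from -2.54 to 4.73. Over all genes tested the median was 1.92. The distance between both medians was -2.22, and it was 0.09 under quantile normalization, so the order of the subunits against all genes depends on the scaling. Without IgG 1 the medians were -1.10 for the subunits and 0.14 for all genes. On the deposited scale, fully separated groups were seen more often on the lower side. Both anti-PHGDH values were below both IgG values for 15 subunit genes (19.5%), beside 6.16% of all genes. They were above for 2 (2.60%), beside 38.3%. This depended on the scaling. The lower share was 28.6% with TMM factors, 76.6% with library medians and 16.9% without mitochondrial genes, beside 9.05%, 33.2% and 4.24% of all genes. Under quantile normalization it was 14.3%, less than the 20.6% of all genes, and 7.79% were higher, beside 17.1%. Against IgG 2 alone on the deposited scale, both anti-PHGDH values were below it for 64 subunit genes (83.1%), beside 25.1% of all genes. They were above it for 3 (3.90%), beside 43.9%. The 15 were UQCRHL, UQCRH and UQCRB of complex III, NDUFS4, NDUFB9, NDUFA8, NDUFC2, NDUFA12, NDUFV2 and NDUFV3 of complex I, COX5A of complex IV, ATP5PB, ATP5F1B and ATP5PF of complex V, and CYCS. Only UQCRHL among them was at least 2-fold lower in every comparison of an anti-PHGDH with an IgG library on CPM + 1, beside 0.084% of all genes. The higher ones were ATP5F1C and COX6B2, of which COX6B2 alone was at least 2-fold higher throughout, beside 9.3% of all genes.

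**Figure D2:**
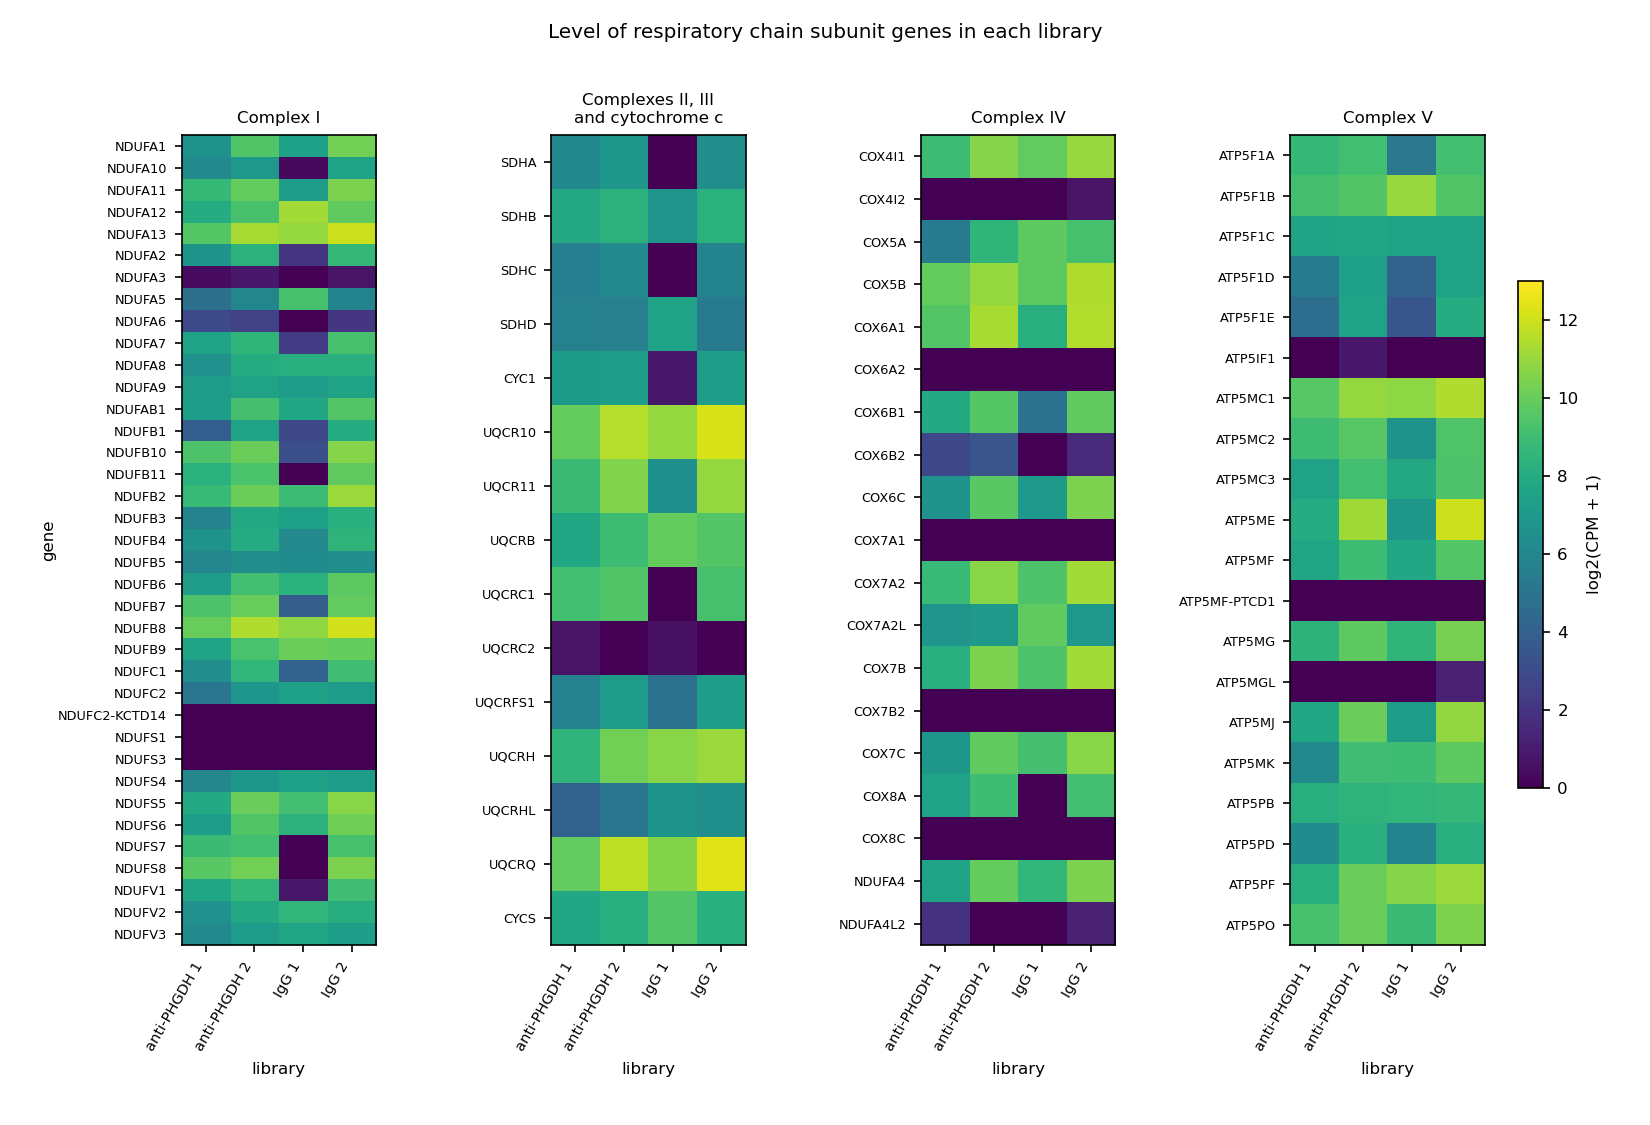
Level of 91 of the 92 subunit mRNAs (rows, by complex) in each library (columns), coloured by log2(CPM + 1) from dark (0) to yellow (highest). Over the 77 tested, IgG 1 is at 0 for 8 genes, and 76 are lower in anti-PHGDH 1 than in anti-PHGDH 2.

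Anti-PHGDH 2 and IgG 2 were close in depth and had few of the 9524 genes at 0 (6 and 16), so their ratio is given gene by gene as a description of these 2 libraries. There, 64 of the 77 subunit genes were lower with anti-PHGDH and 13 were higher, whereas 63.1% of all genes tested were higher. The median ratio of anti-PHGDH 2 to IgG 2 was 0.746 for the subunits, with a range from 0.380 to 5.19, and 1.14 for all genes. In 53 of the 77 the 95% counting interval of the ratio lay wholly below 1, and in 5 wholly above (SDHA, UQCRC1, NDUFB7, ATP5MC2 and COX6B2). Over all genes tested, 7.24% had an interval wholly below 1 and 18.5% wholly above. These shares are not matched for level, and an interval is wider where reads are fewer. The median in anti-PHGDH 2 was 537 CPM for the subunits and 23.8 CPM for all genes. The interval included 1 for 19 of the 77 subunits and for 7075 of the 9524 genes. Such intervals describe these 2 libraries and cover neither PCR copies nor differences between replicates. The subunit median was also below 1 with TMM factors (0.661), library medians (0.601), quantile normalization (0.840) and CPM without mitochondrial genes (0.790). The direction of all genes was not as stable: 50.7% were higher with TMM factors, 40.7% with library medians, 45.1% with quantile normalization and 68.5% without mitochondrial genes, beside 7, 3, 14 and 17 of the 77 subunits. Among abundant genes alone, those with at least 100 CPM in 2 libraries, 7 of 70 subunits (10.0%) and 48.0% of all 1388 such genes were higher in anti-PHGDH 2.

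The anti-PHGDH libraries also differed from each other. In anti-PHGDH 1, 76 of the 77 subunit mRNAs were lower than in anti-PHGDH 2, with a median ratio of 0.398. SDHD was the exception, at 1.05. At least 2-fold lower were 51 of the 77, beside 1508 of all 9524 genes tested. Over all genes, 48.7% were higher in anti-PHGDH 1 and the median ratio was 0.976. Of genes with at least 100 CPM in 2 libraries, 29.8% were higher there, and 0.0% of the subunits in that range. With mitochondrial genes taken out of the totals, 8 of the 77 subunits were higher in anti-PHGDH 1, beside 6001 of 9509 genes. The subunit median log2 ratio moved from -1.33 to -0.97. Quantile normalization also gave 8 of 77, beside 4659 of 9524 genes. Anti-PHGDH 1 was above IgG 1 for 36 of the 77, and above IgG 2 for 3, with a median ratio to IgG 2 of 0.286. Of all genes, 80.6% were higher in anti-PHGDH 1 than in IgG 1. Above IgG 2 were 55.6%, with a median ratio to IgG 2 of 1.13. IgG 1 was above IgG 2 for 14 of the 77, beside 18.0% of all genes, and 8 of the 77 (10.4%) were at 0 in IgG 1, fewer than the 61.9% of all genes noted above. Genes of at least 100 CPM in 2 libraries were at 0 there in 20.5% of cases, and the subunits of that range in 7.14%.

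**Figure D3:**
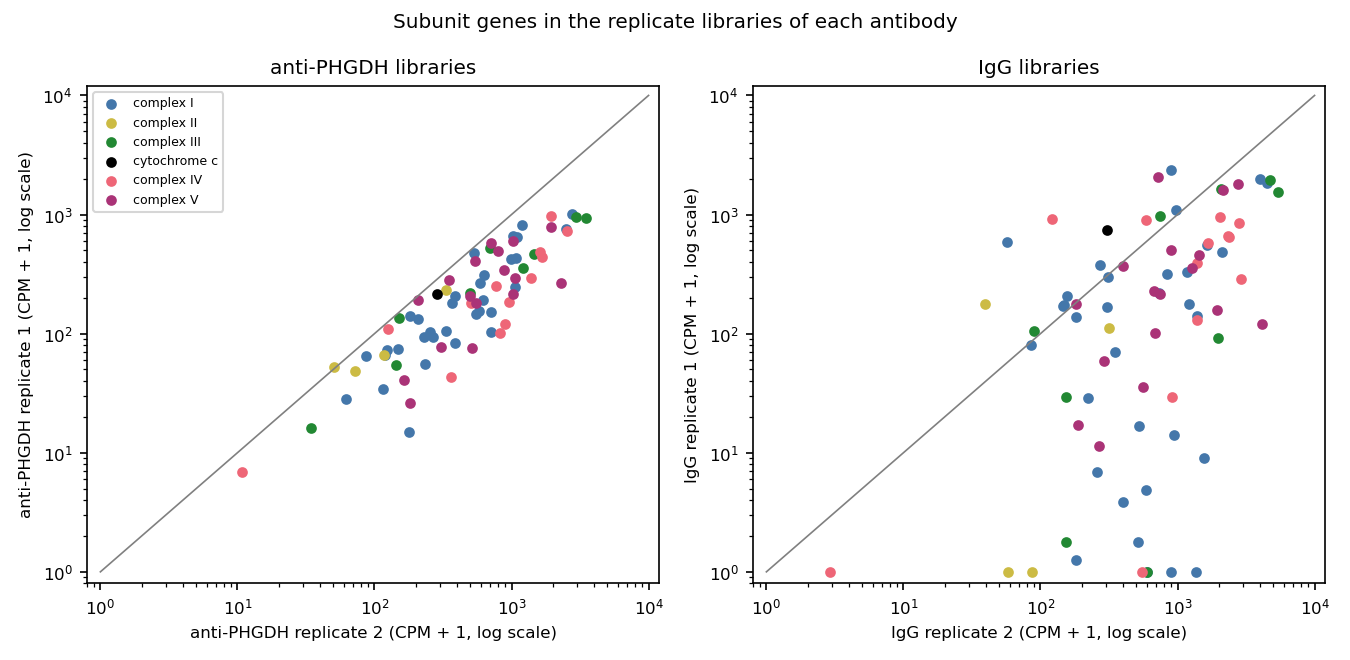
Each point is 1 subunit gene tested, coloured by complex, with CPM + 1 on log axes and the line of equality, for anti-PHGDH 1 against anti-PHGDH 2 (left) and IgG 1 against IgG 2 (right). On the left 76 of 77 points lie below the line, and on the right 14 of 77 lie above it, with 8 genes at 0 in IgG 1 along the bottom edge.

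Promoters of the subunit genes were examined for what they share beyond the name stems. Many nuclear genes of respiration are known targets of the transcription factor NRF1, which binds a palindromic GC-rich site. The letters CGCATGCG, the core of that site and identical to their own reverse complement, occurred in the 250 bases upstream of the start in 9 of the 73 subunit genes with a RefSeq promoter entry (12.3%), beside 2.49% of 15843 protein-coding promoters. The ETS-type letters CCGGAAG, or CTTCCGG on the other strand, occurred in 17 (23.3%) beside 11.8%, and CCAAT, or ATTGG, in 25 (34.2%) beside 34.5%. A match describes the letters only. One stretch of 60 bases is shown for each of 4 complexes, as examples of the shared core among genes whose levels follow, with the core in capitals and each written 5′ to 3′ on the gene's strand (RefSeq, GRCh38.p14). The stretches lie at chr19:1383807-1383866 (NDUFS7, plus strand), chr11:112086738-112086797 (SDHD, plus), chr12:120437868-120437927 (COX6A1, plus) and chr21:25735140-25735199 (ATP5PF, minus). The core begins 74, 109, 219 and 119 bases upstream of the start, in that order.
NDUFS7: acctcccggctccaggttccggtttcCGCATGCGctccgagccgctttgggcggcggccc
SDHD: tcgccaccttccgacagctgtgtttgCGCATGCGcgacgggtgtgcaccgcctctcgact
COX6A1: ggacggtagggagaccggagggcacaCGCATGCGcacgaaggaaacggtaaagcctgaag
ATP5PF: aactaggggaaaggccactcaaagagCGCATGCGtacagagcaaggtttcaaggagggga
Over all 9 genes with the core, the ratio of anti-PHGDH 2 to IgG 2, described above, ran from 0.492 to 1.28 with a median of 0.875. Of the 9, 3 were above 1, beside 63.1% of all genes tested. The groups were separated for 2 of the 9, with ATP5PF lower and ATP5F1C higher with anti-PHGDH. Of all genes tested, 6.16% were separated on the lower side and 38.3% on the higher side.

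Complex I, the NADH dehydrogenase, supplied the most genes, 33 of them tested, and took 0.832% and 2.03% of reads in anti-PHGDH 1 and 2 and 1.18% and 2.95% in IgG 1 and 2. In the libraries numbered 2, 30 of 33 were lower with anti-PHGDH, with a median ratio of 0.746 and a range from 0.514 to 1.09. NDUFB5, NDUFA5 and NDUFB7 were the higher ones, and all 33 were lower under TMM factors or library medians. Core subunits, which hold the flavin and the iron-sulphur clusters, lay nearer to 1 (5 tested, median 0.868) than accessory subunits did (28 tested, 0.514 to 1.09, median 0.708). The accessory range includes the core median, and the difference between these roles was not tested.

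The core subunits of complex I include the largest fold changes among all members, and these rest on IgG 1. NDUFS8, which carries a pair of iron-sulphur clusters (chr11:68030681-68036644), had 808 and 1185 CPM in anti-PHGDH 1 and 2 and 0 and 1365 CPM in IgG 1 and 2. NDUFS7, which holds the cluster next to the ubiquinone site (chr19:1383907-1395584), had 470.3 and 528 CPM in anti-PHGDH 1 and 2 and 0 and 597 CPM in IgG 1 and 2. For both genes IgG 2 was the highest library and IgG 1 was at 0, so the groups overlap. In limma the log2 fold changes were 4.73 (SE 1.53) for NDUFS8 and 4.35 (SE 1.68) for NDUFS7, each with an adjusted p of 0.677. By counting error alone, a floor of 3 reads in IgG 1 puts anti-PHGDH 1 at least 1044-fold higher for NDUFS8 and 608-fold for NDUFS7. However, IgG 1 was at 0 for 20.5% of all genes with at least 100 CPM in 2 libraries. These folds are therefore not read as lower bounds. Without IgG 1 both fold changes turned, to -0.48 and -0.26, and in the libraries numbered 2 the ratios were 0.868 (95% counting interval 0.812 to 0.929) and 0.884 (0.798 to 0.978).

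The other core subunits of complex I did not follow NDUFS8 and NDUFS7 throughout. NDUFV1, the subunit that binds the flavin, had 206 and 388 CPM in anti-PHGDH 1 and 2 and 0.774 and 518 CPM in IgG 1 and 2. IgG 1 was lowest and IgG 2 highest. NDUFV2, the partner of NDUFV1, ran the other way in IgG 1, with 93.6 and 230.2 CPM in anti-PHGDH 1 and 2 and 377 and 272 CPM in IgG 1 and 2, and its groups did not overlap. NDUFS1 and NDUFS3, a large iron-sulphur subunit and a core subunit of the peripheral arm, are listed at 0 in all 4 libraries.

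Among the 28 accessory subunits of complex I tested, NDUFB8 and NDUFA13 were among the 5 members with the highest CPM in 3 or more libraries. NDUFB8 had 1000.0 and 2778 CPM in anti-PHGDH 1 and 2 and 1841 and 4469 CPM in IgG 1 and 2. NDUFA13, also known as GRIM-19, had 761 and 2501 CPM in anti-PHGDH 1 and 2 and 1985 and 4024 CPM in IgG 1 and 2. Both were lower with anti-PHGDH at each number, with a ratio of 0.622 at number 2 for each. NDUFA12 had the highest CPM of the members in IgG 1, 2374, with 265 and 590.2 CPM in anti-PHGDH 1 and 2 and 891 CPM in IgG 2, and its groups did not overlap. NDUFB2 had 431 and 1085 CPM in anti-PHGDH 1 and 2 and 488 and 2113 CPM in IgG 1 and 2, and its ratio at number 2 was the lowest of complex I, 0.514 (0.482 to 0.548). NDUFA5 (chr7:123536997-123601651) had 27.0 and 60.8 CPM in anti-PHGDH 1 and 2 and 584 and 56.3 CPM in IgG 1 and 2. Its log2 fold change of -2.14 (SE 1.76, limma adjusted p = 0.677) rested largely on IgG 1, since it was -0.46 without that library and the ratio at number 2 was 1.08 (0.782 to 1.49). NDUFA6 (3.17 to 6.24 CPM outside IgG 1, where it was at 0) and NDUFA3 (at most 0.822 CPM) did not reach the filter.

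Complex II, the succinate dehydrogenase shared with the citric acid cycle, stood above 1 at number 2, as most genes tested did on the deposited scale. All 4 of its mRNAs were higher in anti-PHGDH 2 than in IgG 2, with ratios from 1.05 to 1.36 and a median of 1.26. Of all genes tested, 63.1% were higher, with a median ratio of 1.14, and 18.5% had an interval wholly above 1. All 4 were also higher under quantile normalization and without mitochondrial genes, but 3 under TMM factors and 2 with library medians. SDHA, the flavoprotein that oxidises succinate, had 65.7 and 116 CPM in anti-PHGDH 1 and 2 and 0 and 85.5 CPM in IgG 1 and 2. Its ratio at number 2 was 1.36 (1.06 to 1.73), the only one of the 4 with an interval wholly above 1. SDHB, the iron-sulphur subunit, had 232 and 330.5 CPM in anti-PHGDH 1 and 2 and 110.4 and 315 CPM in IgG 1 and 2, with a ratio of 1.05 (0.919 to 1.20). The membrane anchors SDHC and SDHD bind ubiquinone and haem. SDHC had 47.8 and 70.7 CPM in anti-PHGDH 1 and 2 and 0 and 57.0 CPM in IgG 1 and 2, and SDHD had 51.7 and 49.3 CPM in anti-PHGDH 1 and 2 and 178 and 38.6 CPM in IgG 1 and 2. Their ratios at number 2 were 1.24 (0.912 to 1.69) and 1.28 (0.879 to 1.85). In all 4 genes the groups overlapped, and no limma adjusted p was below 0.677. The median log2 fold change of complex II was 1.76 (range -0.71 to 3.25), and 0.03 without IgG 1, a library in which SDHA and SDHC were at 0. Taken as whole complexes, complex II also differed least between the anti-PHGDH libraries, with a median ratio of anti-PHGDH 1 to 2 of 0.689. In complexes I, III, IV and V it was 0.288 to 0.407. This was not particular to complex II by role. The catalytic and core subunits of complex III stood at 0.753, the F1 head of complex V at 0.752 and the core of complex I at 0.630. The complex II genes had fewer reads than those of the other complexes, 0.0288 to 0.0566% of each library in all.

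**Figure D4:**
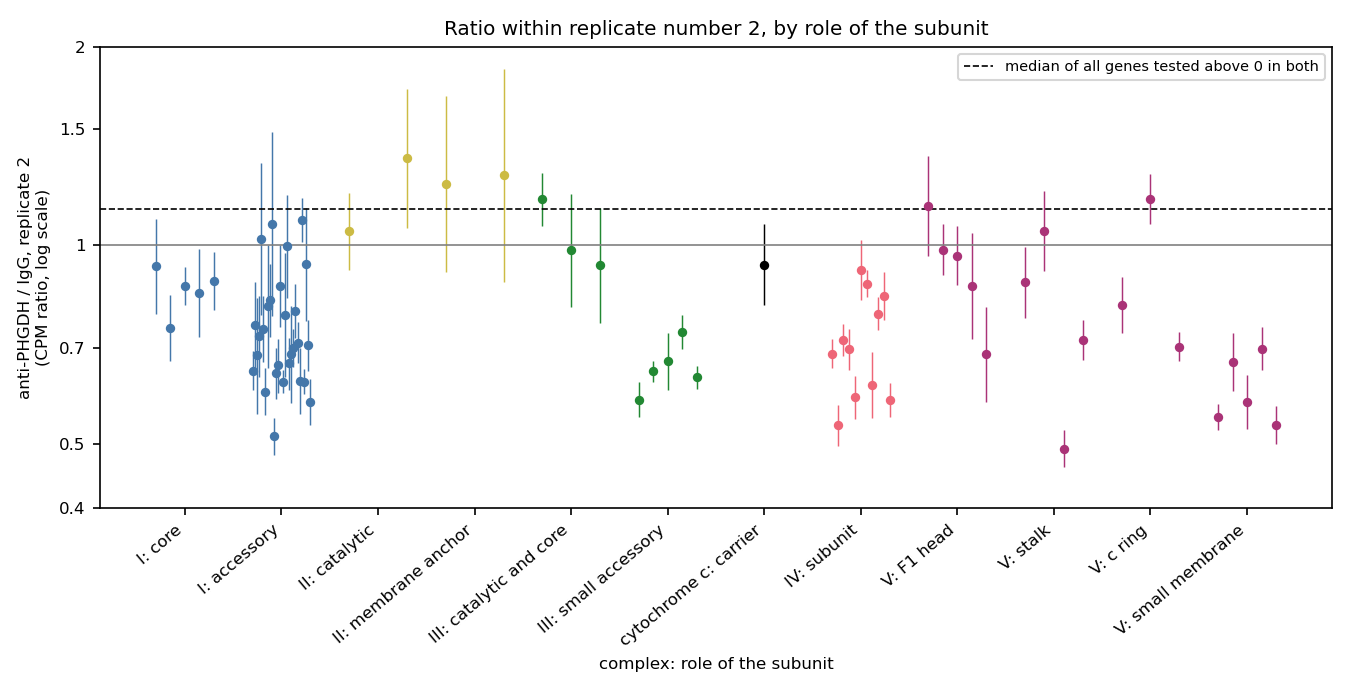
Ratio of anti-PHGDH 2 to IgG 2 (CPM over CPM, log axis) for each subunit gene tested, grouped by complex and role, with 95% counting intervals of these 2 libraries, a solid line at 1 and a dashed line at the median of all genes (1.14); COX6B2, COX7A2L and UQCRHL are left out. The 4 complex II genes lie above 1, and the small accessory subunits of complex III, the common subunits of complex IV and the small membrane subunits of complex V lie below it.

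Complex III, the cytochrome bc1 complex, split by role in the libraries numbered 2. Its catalytic and core subunits tested (UQCRC1, CYC1 and UQCRFS1) had ratios from 0.934 to 1.17, while the 5 small accessory subunits (UQCRH, UQCRQ, UQCRB, UQCR10 and UQCR11) had ratios from 0.583 to 0.739, below every core value. These ranges did not overlap under the deposited scale; the split was seen in these libraries and was not tested. UQCRC1, a core protein facing the matrix (chr3:48599002-48609646), had 526 and 699 CPM in anti-PHGDH 1 and 2 and 0 and 595 CPM in IgG 1 and 2. The fold change on the log2 scale was 4.64 (SE 1.65) with a limma adjusted p of 0.677, and it was 0.03 without IgG 1, where it was at 0, and the ratio at number 2 was 1.17 (1.07 to 1.29). CYC1, the cytochrome c1 haem protein, had 134 and 149.6 CPM in anti-PHGDH 1 and 2 and 0.774 and 152 CPM in IgG 1 and 2, so 3 libraries lay together and IgG 1 apart. UQCRFS1, the Rieske iron-sulphur protein, had 53.2 and 143 CPM in anti-PHGDH 1 and 2 and 28.1 and 153 CPM in IgG 1 and 2. UQCRC2, the partner of UQCRC1, was listed at 0.594, 0, 0.516 and 0 CPM in anti-PHGDH 1 and 2 and IgG 1 and 2.

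The small subunits of complex III took most of its reads. UQCRQ, which contacts cytochrome b, had 937 and 3466 CPM in anti-PHGDH 1 and 2 and 1533 and 5379 CPM in IgG 1 and 2, and UQCR10 had 961 and 2963 against 1957 and 4695 CPM. Both were lower with anti-PHGDH at each number, and both groups overlapped because IgG 1 lay below anti-PHGDH 2. UQCRH, the hinge protein that helps cytochrome c bind, had 354 and 1217 CPM in anti-PHGDH 1 and 2 and 1641 and 2086 CPM in IgG 1 and 2, with no overlap. UQCRHL (chr1:15807374-15807649), a close copy of UQCRH, had 15.2 and 33.7 CPM in anti-PHGDH 1 and 2 and 104 and 88.6 CPM in IgG 1 and 2. The fold change on the log2 scale was -2.03 (SE 2.00) with a limma adjusted p of 0.677, and -1.92 without IgG 1. Its ratio at number 2 was 0.380 (0.262 to 0.542), the lowest of all members. Reads of so similar a pair may have been shared between them in counting, so the value of UQCRHL is uncertain. CYCS, the soluble electron carrier between complexes III and IV, had 215 and 284 CPM in anti-PHGDH 1 and 2 and 747 and 303 CPM in IgG 1 and 2, with no overlap between groups. Its ratio at number 2 was 0.935 (0.812 to 1.08).

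Complex IV, cytochrome c oxidase, had the lowest levels in anti-PHGDH 1 relative to anti-PHGDH 2, with a median ratio of 0.288 over 13 genes tested. It took 0.391% and 1.36% of reads in anti-PHGDH 1 and 2 and 0.631% and 1.91% in IgG 1 and 2. All 11 of its widely expressed nuclear subunits were lower in anti-PHGDH 2 than in IgG 2 (0.533 to 0.917, median 0.696), on the deposited scale and on all others tried except quantile normalization, where 10 were. COX5A, an early-assembling subunit on the matrix side (chr15:74919791-74938073), had 42.2 and 363 CPM in anti-PHGDH 1 and 2 and 891 and 591 CPM in IgG 1 and 2. Both anti-PHGDH values lay below both IgG values, and the log2 fold change was the lowest of all members, -2.54 (SE 1.41, limma adjusted p = 0.677), and -2.24 without IgG 1. COX4I1, the subunit through which ATP acts on the enzyme, had 485 and 1608 CPM in anti-PHGDH 1 and 2 and 951 and 2040.0 CPM in IgG 1 and 2. COX5B had 965 and 1934 against 842 and 2822 CPM. COX6C had 101 and 821 against 129 and 1395 CPM, and COX7C had 119 and 891 against 578 and 1671 CPM. In each of these 4, anti-PHGDH 2 and IgG 2 were the higher library of their group and the groups overlapped.

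Several complex IV subunits exist as a common form and a form restricted to muscle, lung, testis or other tissues, and each restricted form had far fewer reads here than its common partner over the 4 libraries together. COX6A1 had 733 and 2541 CPM in anti-PHGDH 1 and 2 and 286 and 2904 CPM in IgG 1 and 2, while COX6A2 was at 0 throughout. COX7A2 (440.3 and 1672 against 656 and 2326 CPM), COX7B (289.97 and 1376 against 650.5 and 2360.3 CPM) and COX8A (181 and 506 against 0 and 551 CPM) stood beside COX7A1, COX7B2 and COX8C at 0 throughout. COX4I2 was above 0 in IgG 2 alone, at 0.633 CPM. NDUFA4 had 185 and 959 CPM in anti-PHGDH 1 and 2 and 388 and 1378 CPM in IgG 1 and 2, while NDUFA4L2 was above 0 only in anti-PHGDH 1 (2.67 CPM) and IgG 2 (1.27 CPM). COX6B1 had 249.9 and 765 CPM in anti-PHGDH 1 and 2 and 28.6 and 912 CPM in IgG 1 and 2. Its testis form COX6B2 had 5.94 and 9.87 CPM in anti-PHGDH 1 and 2 and 0 and 1.90 CPM in IgG 1 and 2, that is 20, 12, 0 and 3 reads. COX6B2 was the only isoform of this kind to reach the filter, and the ratio at number 2 was 5.19 (1.40 to 28.7), from counts too small to set its size. COX7A2L, which links complexes III and IV in supercomplexes, had 109 and 125 CPM in anti-PHGDH 1 and 2 and 915 and 119.7 CPM in IgG 1 and 2, with IgG 1 alone high.

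Complex V, the ATP synthase, showed the same order by role as complex III. Subunits of the F1 head had ratios at number 2 from 0.683 to 1.15 (5 tested, median 0.965), and the 5 small membrane subunits tested (ATP5ME, ATP5MF, ATP5MG, ATP5MJ and ATP5MK) had ratios from 0.534 to 0.697 (median 0.579). The ranges overlap at ATP5F1E, the smallest head subunit, and the difference was not tested. The small membrane subunits also had the lowest ratio of anti-PHGDH 1 to 2 of the roles with 3 or more genes, 0.210, against 0.752 for the head. Of the catalytic core, ATP5F1A had 404 and 537 CPM in anti-PHGDH 1 and 2 and 34.6 and 557 CPM in IgG 1 and 2, and ATP5F1B had 573 and 707 against 2055 and 717 CPM. At number 2 both were near equality, with 0.965 (0.870 to 1.07) and 0.986 (0.901 to 1.08), and IgG 1 set them apart in opposite directions. ATP5F1C, the rotating central stalk within the head, had 191 and 207 CPM in anti-PHGDH 1 and 2 and 176 and 180.4 CPM in IgG 1 and 2. Its groups did not overlap, but its means of 199 ± 11.2 and 178 ± 3.17 CPM (SD, n = 2) differ little, with a log2 fold change of 0.16 (SE 1.53, limma adjusted p = 0.947).

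The c ring, the proton-driven rotor, is made from 1 protein encoded by 3 genes, whose mature products are identical. ATP5MC1 had 789 and 1938 CPM in anti-PHGDH 1 and 2 and 1793 and 2759.9 CPM in IgG 1 and 2, ATP5MC2 had 492 and 801 against 99.9 and 681 CPM, and ATP5MC3 had 179 and 545 against 227 and 670.5 CPM. Their ratios at number 2 were 0.702 (0.667 to 0.738), 1.18 (1.08 to 1.28) and 0.813 (0.737 to 0.897), so ATP5MC2 lay on the other side of 1 from its paralogs, with intervals that do not overlap; it lay below 1 with library medians. Of the peripheral stalk, ATP5PF had 294 and 1053 CPM in anti-PHGDH 1 and 2 and 1603 and 2141 CPM in IgG 1 and 2, with no overlap between groups and the second lowest ratio at number 2, 0.492 (0.461 to 0.525). ATP5ME, of the membrane part, was among the 5 members with the highest CPM only in IgG 2 and differed widely between the numbers, at 263 and 2282 CPM in anti-PHGDH 1 and 2 and 119 and 4151 CPM in IgG 1 and 2. ATP5IF1, the natural inhibitor of the enzyme, was listed at 0.822 CPM in anti-PHGDH 2, which is 1 read, and at 0 in the other libraries.

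In all, 15 of the 92 genes did not reach the filter. Beside NDUFS1, NDUFS3, NDUFA3, NDUFA6, UQCRC2, ATP5IF1, COX4I2, COX6A2, COX7A1, COX7B2, COX8C and NDUFA4L2, these were the readthrough genes NDUFC2-KCTD14 and ATP5MF-PTCD1 and the ATP5MG copy ATP5MGL. NDUFS1, NDUFS3 and UQCRC2 encode core subunits that respiring cells use. Their listing at or near 0, in the control libraries as well, is given as deposited and is not read as a level. The low values of ATP5IF1, NDUFA3 and NDUFA6 are treated likewise.

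The subunits of the same complexes that the mitochondrial genome encodes ran opposite to the nuclear ones. All 13 had both anti-PHGDH values above both IgG values, beside 38.3% of all genes, and 8 were at least 2-fold higher in every comparison, beside 9.3%. Against IgG 2 alone all 13 were again higher. The separation from both IgG libraries depended on the scaling: it held for 10 of 13 with TMM factors or quantile normalization and for 0 with library medians, where anti-PHGDH 1 was above IgG 1 for 3 of 13. None was called in limma (smallest adjusted p = 0.365). The complex I subunit ND5 had 19193 and 3013 CPM in anti-PHGDH 1 and 2 and 287 and 419 CPM in IgG 1 and 2, with a log2 fold change of 4.45 (SE 1.13), and 4.18 without IgG 1. The core subunit of complex IV, COX1, had 27581 and 11267 against 9917 and 5006 CPM. At number 2 all 13 had ratios above 1, from 1.48 to 14.3 with a median of 2.88, and all 13 stayed above 1 with TMM factors (median 2.54), library medians (2.31) and quantile normalization (2.76). On the deposited scale 12 of 13 were higher in anti-PHGDH 1 than in anti-PHGDH 2, with a median ratio of 4.15. The nuclear-encoded subunits showed the reverse order between these libraries. By complex, the mitochondrially encoded subunits of complex I took 12.4% and 2.69% of reads in anti-PHGDH 1 and 2 and 0.470% and 0.559% in IgG 1 and 2. Those of complex IV took 9.11% and 4.15% against 2.12% and 2.33%.

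Assembly factors are the chaperones and maturation enzymes that build these complexes without being part of them. At number 2 their median ratio was nearer to 1 than that of the subunits on every scaling but quantile normalization. There it was 0.825, beside 0.840 for the subunits. With TMM factors it was 0.841 beside 0.661, and with library medians 0.762 beside 0.601. The sets differed in level, with medians in anti-PHGDH 2 of 47.7 CPM for assembly factors and 537 CPM for subunits. Of 54 listed, 52 were tested and limma called 0 in either direction. At number 2, 22 of 52 (42.3%) were higher with anti-PHGDH, beside 63.1% of all genes, with a median ratio of 0.945, and the median log2 fold change was 0.68, or -0.28 without IgG 1, in which 21 of the 52 were at 0. There were 10 (19.2%) with both anti-PHGDH values above both IgG values and 8 (15.4%) with both below, beside 38.3% and 6.16% of all genes. Without IgG 1 these were 10 (19.2%) and 28 (53.8%), beside 43.9% and 25.1% of all genes. COX10, which makes the haem precursor for complex IV, was the only one at least 2-fold higher throughout (1.92%), beside 9.3% of all genes. It had 43.1 and 25.5 CPM in anti-PHGDH 1 and 2 and 0 and 7.60 CPM in IgG 1 and 2. Its log2 fold change was 3.54, or 1.99 without IgG 1. The counting interval at number 2 included 1 for 40 of the 52, lay below 1 for 8 (15.4%) and above 1 for 4 (7.69%). Of all genes these shares were 7.24% below and 18.5% above, not matched for level.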

How the data were processed

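RNA recovered in 2 anti-PHGDH and 2 IgG pulldowns was converted to amplified cDNA and sequenced in paired ends, per the labels' protocols. The authors deposited 1 table of CPM values per library, with 44715 symbols. The submitters' processing notes name STAR 2.5.4b, featureCounts and hg38. Their settings, the use of strand and the handling of duplicate reads are not given in the sources used here. Values were whole multiples of 1 read (0.297, 0.822, 0.258 and 0.633 CPM in anti-PHGDH 1 and 2 and IgG 1 and 2) for 99.98 to 100% of values above 0, within 0.0006 CPM. Totals were 3365837, 1216477, 3875746 and 1579430 reads in that order. By counting error alone, a count of 0 allows up to 3 reads.

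The 9524 genes reaching 5 CPM in 2 or more libraries were tested on log2(CPM + 1) with limma 3.58.1 (R 4.3.3), with an intensity trend, no covariates, two-sided, and Benjamini-Hochberg adjustment over all of them at 0.05. Fold changes are on that scale, so those of low genes come out too small. The prior degrees of freedom were infinite, so each gene was given the spread of the trend at its level. The script was tested on simulated data. Ratios of 2 libraries carry exact 95% counting intervals, and shares Wilson intervals. edgeR 4.0.16 and DESeq2 1.42.0 on the recovered reads, other filters, pseudocounts and scalings, a replicate block and leaving out each library were alternatives. Genes were named by role (core and catalytic subunits, isoforms), by the 3 largest and smallest fold changes and number 2 ratios, and by the 5 highest levels per library; a few others are named where a count of 5 or fewer or a contrast within a role singles them out, chosen after their values were seen. Members and lists were chosen with earlier results of these data known. Symbols were matched to RefSeq (GRCh38.p14) for 91 of 92 members, which gave positions and promoters. Transcript lengths were not used here. The values of 1 member are not reported here, although it is counted in the totals and medians.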

Additional observations from a re-analysis of the deposited data

How the results depend on the processing

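Of the 20 alternatives to the main fit, none called a subunit gene lower with all 4 libraries in, and a pseudocount of 0.1 CPM called 1 higher (NDUFS8, log2 fold change 6.39, limma adjusted p = 0.0427). Leaving out 1 library gave 0 to 26 subunit genes higher and 0 to 6 lower, all of these calls without IgG 2; for assembly factors it gave 0 to 28 and 0 to 8, for mitochondrially encoded genes 0 to 5 higher, and over all genes 0 to 7129 higher and 0 to 1032 lower, against 1 and 0 with all libraries. Over all genes the count higher was 11 with a pseudocount of 0.1 CPM, 3 with a filter of 1 CPM, 6 with no filter, 3 with a robust trend, and 0 with library medians, no trend, edgeR or DESeq2 (at an unadjusted p under 0.05, 21 higher and 162 lower, and 89 and 149). Of the mitochondrially encoded genes 1 was called with a pseudocount of 5 CPM or quantile normalization, 2 with a filter of 1 CPM or a robust trend, and 5 with no filter.

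The deviations of same-numbered libraries had a correlation of 0.0058 over all genes. IgG 1 was at 0 for 61.9% of these genes, so the correlation cannot decide whether the numbers pair the libraries. Of the 77 subunits, 76 were lower in anti-PHGDH 1 than in anti-PHGDH 2, and 63 were lower in IgG 1 than in IgG 2. Over all 9524 genes these counts were 4886 and 7801. The numbers are not taken to pair the libraries. With the replicate block limma called 4 genes, 3 of them mitochondrially encoded and 0 subunits, and edgeR called 0 (10 higher at an unadjusted p under 0.05); the subunit median minus that of all genes was -3.64 in edgeR with the block.

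That difference, -2.22 with the main settings, was -3.67 with a pseudocount of 0.1 CPM, -0.71 with a filter of 100 CPM, 0.092 with quantile normalization, and -3.11 to -1.24 with a library left out. Centring on library medians moved the median of the subunits to -2.79 (complexes I to V: -2.91, -0.73, -3.17, -3.06 and -2.72). With a library left out the medians ran from -1.10 to 0.49 for all, -1.27 to 0.46 for complex I, 0.030 to 3.60 for II, -1.61 to 0.27 for III, -1.52 to 0.39 for IV and -1.16 to 0.62 for V. Without IgG 1 the fold changes of NDUFS8 and NDUFS7 turned to -0.48 and -0.26, within leave-one-out ranges of -0.48 to 9.94 and -0.26 to 8.96. The 1 subunit at least 2-fold higher throughout became 0 with a pseudocount of 5 CPM, filters of 20 or 100 CPM, library medians, quantile normalization or a 4-fold limit, and 1 to 28 with a library left out. The 1 lower became 0 with a filter of 100 CPM or a 4-fold limit, 12 with library medians, 5 with a 1.5-fold limit, and 1 to 24 with a library left out. The cause of these shifts was not tested. The filter of 100 CPM, CPM without mitochondrial genes, NDUFA4 with complex I and the ratios at number 2 and the separation of the groups under each scaling were chosen after seeing the data.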
